A study of Mus musculus with 4 samples.

Results

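Fibroblasts of the meninges and of the perivascular space were sought among single nuclei of the mouse hippocampus by a marker rule. A nucleus was taken when at least 3 of 9 marker genes (Dcn, Col1a1, Col1a2, Slc6a13, Bnc2, Ranbp3l, Lum, Slc47a1 and Igf2) had 1 or more UMIs (unique molecular identifiers, each 1 counted transcript). It also had to hold fewer than 2 of 7 genes of glia and endothelium (Mobp, Mog, Prr5l, Gja1, Inpp5d, Cldn5 and Mecom), at most 3 UMIs of Gad1, Gad2 and Slc17a7 together and at most 5 UMIs of the haemoglobin genes Hbb-bs, Hba-a1 and Hba-a2. The rule chose 211 of the 55295 nuclei that had at least 500 genes and under 5% mitochondrial UMIs. Hippocampi had been frozen from 4 adult mice, 2 of them wild-type (WT) and 2 heterozygous for a knock-in of the R87C change in Cyfip2 (Cyfip2+/R87C, KI, on the C57BL/6N background), with 1 library per mouse. The knock-in is not restricted to a cell type. CYFIP2 is a subunit of the WAVE complex, which drives branched actin assembly, and Cyfip2+/R87C mice are studied as a model of early infantile epilepsy. KI replicate 2 has R88C in its treatment label, unlike its genotype label, by which it was grouped.

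Fibroblasts of the brain surface lie in layers. Dural fibroblasts sit outermost, arachnoid barrier cells are joined by tight and adherens junctions and carry efflux transporters, and pial and perivascular fibroblasts rest on the basement membrane of the brain and follow larger vessels inward. They are known for collagens, small proteoglycans, transporters of organic ions and amino acids, retinoic acid synthesis and the secretion of carriers such as prostaglandin D synthase, and they lay down scar matrix after injury. A dissected hippocampus carries only as much of these layers as adheres to it.

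The 211 nuclei were not all of fibroblast type. The neuronal limit of the rule covered only Gad1, Gad2 and Slc17a7, and Dcn, 1 of the 9 markers, was present at 19.4 to 26.2 CPM (UMIs per 1000000 UMIs of the summed nuclei, the unit of all levels below) over all other nuclei. Clustering of the chosen nuclei, without the genes of the rule, set apart 53 nuclei, 25.1% of the members and 57.0% of their UMIs. These held a median of 5 of 7 neuronal markers (Camk2a, Neurod6, Grin2b, Rbfox3, Snap25 and Prox1 among them) against 1 or 2 in the other subgroups. Their median was 8156 UMIs against 1651 to 2416 in the others, and 28 of the 53 had a doublet score above 0.25, against 1 of the other 158 nuclei. This set is called the neuronal subgroup below, and the shares of nuclei, the counts of genes called and the medians of most gene lists are given with and without it. The neuronal subgroup held 8 and 10 nuclei in WT replicates 1 and 2 and 18 and 17 nuclei in KI replicates 1 and 2. Of its 18 WT and 35 KI nuclei, Dcn was detected in 13 and 24, Ranbp3l in 11 and 26 and Bnc2 in 6 and 12. Which markers let these nuclei pass the rule was not tested.

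Genes outside the rule placed the remaining 158 nuclei apart from vascular cells. The 15 pial and perivascular genes, none of them in the rule, summed there to 3665 and 2717 CPM (WT) and 4182 and 3158 CPM (KI), against 347 to 781 CPM in mural nuclei (pericytes and smooth muscle) and 534 to 1308 CPM in endothelial nuclei, both taken by marker rules of the same form. The sum of the 9 markers is raised by the choice of nuclei itself and is given as a description. It was 4408 and 4432 CPM (WT) and 4343 and 4122 CPM (KI). In the neuronal subgroup their sum was 537 to 966 CPM, and over all other nuclei of the series 38.5 to 49.3 CPM. Markers of neighbouring cells were partly present. The 10 mural markers summed in the 158 nuclei to 291 and 376 CPM (WT) against 265 and 521 CPM (KI), where mural nuclei had 1997 to 3949 CPM. Most of these UMIs were of Vtn, with 14, 26, 15 and 36 UMIs, while the pericyte genes Rgs5, Kcnj8 and Higd1b had 0 UMIs in all 211 members. The 8 endothelial markers summed to 145 and 193 CPM (WT) against 69.1 and 59.0 CPM (KI), where endothelial nuclei had 4089 to 6678 CPM, and Cldn5, Ly6c1 and Cyyr1 had 0 UMIs. Cldn5 and Mecom of these markers belong to the rule, which allowed 1 gene of its exclusion list. So do Inpp5d of the microglia and Gja1 of the astrocyte markers below. These sums are thus partly limited by the choice of nuclei. The 7 choroid plexus markers summed to 549 and 260 CPM (WT) against 461 and 315 CPM (KI), mainly Enpp2 and Ttr, with Folr1 and Sostdc1 at 0. The 8 markers of microglia and macrophages summed to 307 and 106 CPM (WT) against 138 and 246 CPM (KI), with Mrc1 at 0. The 8 markers of excitatory neurons, Slc17a7 included, summed to 969 and 1320 CPM (WT) against 1279 and 1092 CPM (KI) in the 158 nuclei, against 3920 to 4493 CPM over all other nuclei. The 7 astrocyte markers summed to 3132 and 1465 CPM (WT) against 1659 and 856 CPM (KI), above the 336 to 535 CPM of all other nuclei in every library, and the part of RNA from other cells in the levels below was not tested. No cell barcode was shared between members of different libraries, while 40 to 67 barcodes were shared between any pair of libraries over all barcodes.

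**Figure D1:**
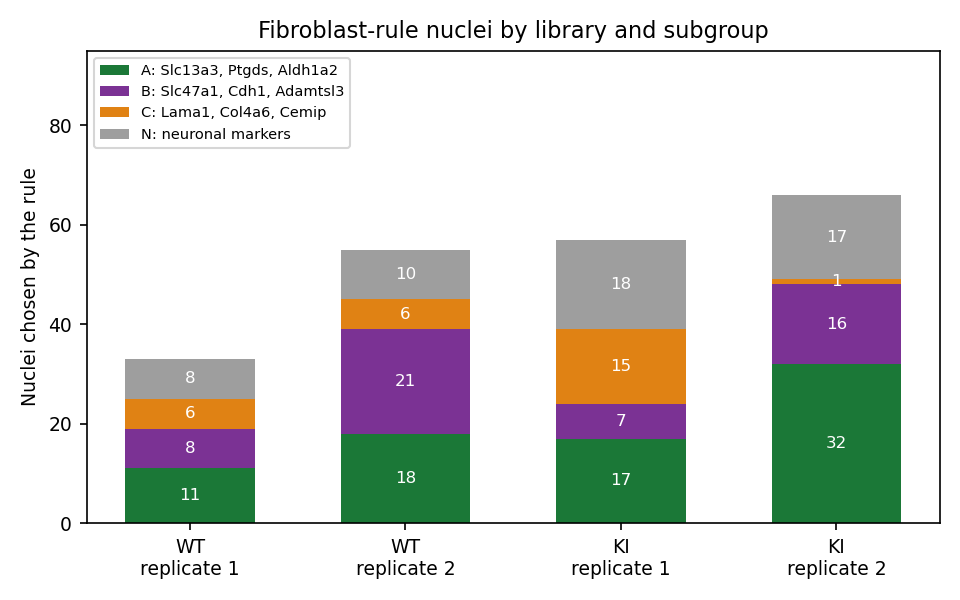
Nuclei chosen by the fibroblast rule in each library (vertical axis, number of nuclei), stacked by subgroup, with the number in each segment. The neuronal subgroup (grey) holds 8, 10, 18 and 17 nuclei from left to right, and subgroup C has 15 nuclei in KI replicate 1 and 1 in KI replicate 2.

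The rule chose more nuclei in KI than in WT, by less than the spread between the WT mice. WT replicate 1 had 33 members among 15981 nuclei (0.206%, exact binomial 95% interval 0.142 to 0.290%) and WT replicate 2 had 55 among 13162 (0.418%, 0.315 to 0.544%). KI replicate 1 had 57 among 12555 (0.454%, 0.344 to 0.588%) and KI replicate 2 had 66 among 13597 (0.485%, 0.376 to 0.617%). Both KI libraries lay above both WT libraries, with a mean of 0.470% ± 0.0222 in KI and 0.312% ± 0.149 in WT (SD, n = 2 each). The exact two-sided permutation test gave p = 0.333, the smallest value that 2 libraries against 2 allow. Without the neuronal subgroup the shares were 0.156% and 0.342% in WT and 0.311% and 0.360% in KI, the groups overlapped, and the exact permutation p was 0.667. The intervals cover counting error only.

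Few members held many markers. Of the 211 nuclei, 141 had exactly 3 of the 9 markers, 47 had 4 and 23 had 5 or more, with 8 the most. Just outside the rule stood 630 nuclei with 2 markers that met every other limit. Their median depth was 6007 UMIs, against 2254 UMIs for members with 3 markers. Nuclei just outside the rule were thus deeper than those just inside.

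The marker genes themselves, which chose the members, are described without a test. Collagen I was detected through Col1a2, its second chain, more often than through Col1a1. In the 158 nuclei Col1a2 had 339 and 366 CPM for the WT mice, 380 and 413 CPM for the KI mice, an even level across the 4 mice. Slc6a13, a GABA and taurine transporter of pial and perivascular fibroblasts, had 468 and 414 CPM (WT) against 829.5 and 216 CPM (KI), so the KI libraries stood on either side of WT. Ranbp3l had 1082 and 1079 CPM (WT) against 1843 and 1004 CPM (KI). Bnc2, a zinc finger transcription factor of mesenchyme, had 1324 and 1522 CPM for the WT mice, 588 and 708 CPM for the KI mice, with both KI libraries lower. Slc47a1, a proton-coupled exporter of organic cations, had 678 and 578 CPM (WT) against 92.2 and 610 CPM (KI), so the low value came from KI replicate 1 alone. Dcn, which encodes the collagen-binding proteoglycan decorin, had 291 and 231 CPM (WT) against 472 and 738 CPM (KI). Col1a1, Lum and Igf2 were sparse, with 48, 8 and 39 UMIs in all.

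Clustering divided the 158 nuclei into 3 subgroups, which are described by their leading genes. Folds are over the other fibroblast-type subgroups, with folds over all other members, the 53 neuronal nuclei included, where these differed by more than 1.5 times. Subgroup A had 78 nuclei, and Ppp1r1a, Nnat, Ccn2, Slc1a2 and Ptgds led it. Ptgds, the synthase of prostaglandin D2 that also serves as a lipid carrier in cerebrospinal fluid, was 8.28 times higher (13.8 times over all other members) and present in 94.9% of these nuclei. That fold pools genotypes, with 3.96 times in WT and 12.6 times in KI. Ccn2, a matrix-associated factor, was 8.64 times higher (14.0 times), but 3.60 times without KI replicate 2, which held 83 of its 106 UMIs in subgroup A. This fold too pools genotypes, with 165 CPM of Ccn2 in WT and 1020 CPM in KI nuclei of subgroup A. Slc13a3 and Slc13a4, which carry dicarboxylates and sulphate, were 6.13 and 5.92 times higher (16.4 and 11.3 times), and Slc13a3 3.85 times without KI replicate 1. Aldh1a2, which makes retinoic acid, was 4.10 times higher (11.1 times), with 7.31 times in WT, 2.62 times in KI and 8.01 times without KI replicate 1. Of 15 pial and perivascular genes, 6 were raised at least 2-fold with 5 or more UMIs, among them Rbp4, Igfbp2 and Lamc3 (1.64 times without WT replicate 1), against 2 of 18 arachnoid barrier genes and 0 of 11 dural genes. Over all other members the pial and perivascular count was 10. Astrocyte genes were raised in subgroup A too, 3 of 7, with 176 UMIs of Slc1a2 (18.1 times higher in WT and 2.87 times in KI), and so were 3 of 10 mural genes, with 67 UMIs of Vtn. The subgroup is therefore called by its letter.

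Subgroup B, with 52 nuclei, held junction and efflux genes of the arachnoid barrier. Cdh1, the adhesion molecule E-cadherin, was 20.1 times higher than in the other fibroblast-type subgroups, Abcb1a, the efflux pump P-glycoprotein, 12.2 times and Abcg2, another efflux pump, 6.37 times (9.65 times over all other members). Perp, a junction protein, had 19 UMIs and none in subgroups A and C. Slc47a1 and Bnc2 were detected in 90.4% and 98.1% of the nuclei, but both are genes of the rule, and 41 of the 52 nuclei held exactly 3 of its 9 markers, so these shares are partly set by the choice. Of the 18 arachnoid barrier genes 8 were raised. Slc47a1 of the rule, 124 times higher, is among these 8, so the count is partly set by the choice. Also raised were 6 of 11 dural genes, with Mgp, an inhibitor of calcification, 4.58 times (11.3 times over all other members, and 12.5 times over subgroups A and C without KI replicate 2) and Ccn3 9.59 times higher. A single pial and perivascular gene of 15 was raised, Adamtsl3 (3 of 15 over all other members). The genes leading by fold also included Adgrv1, Gm26740 and Slc26a2, and this subgroup too is called by its letter.

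Subgroup C had 28 nuclei, and Gm30613, Gm6209, Lypd6b, Cobll1 and Aox3 led it. The aldehyde oxidase gene Aox3 was 10.6 times higher (18.9 times over all other members), but 5.09 times without KI replicate 1. Cemip, which takes part in the breakdown of hyaluronan, was 9.40 times higher, but 5.18 times without WT replicate 1, whose 6 nuclei held 36 of the 57 UMIs. Col4a6, a collagen IV chain, was 5.86 times higher (11.7 times) and Lama1, the laminin chain of the pial basement membrane, 5.26 times (9.39 times). Of the 15 pial and perivascular genes 5 were raised (8 over all other members), against 0 of the 18 arachnoid barrier and 0 of the 11 dural genes. Subgroup C held 6 nuclei in each WT library, 15 in KI replicate 1 and 1 in KI replicate 2, so it mostly described KI replicate 1. Sizes of subgroups were not compared between genotypes, because genes that define them also differed by genotype.

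**Figure D2:**
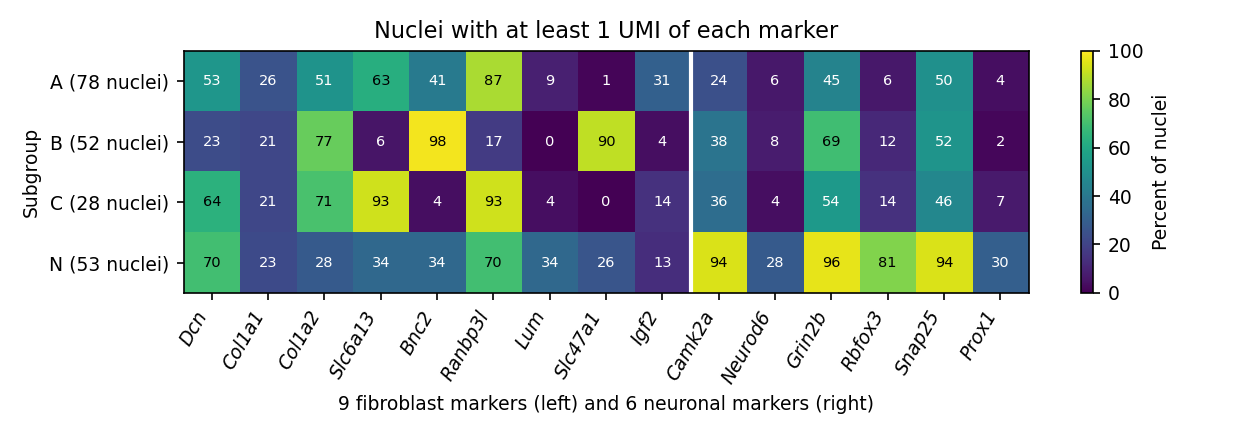
Percent of nuclei with at least 1 UMI (colour and number) of the 9 fibroblast markers that chose the nuclei and of 6 neuronal markers, for subgroups A, B, C and N. The shares of the 9 markers are partly set by the rule, which required 3 of them, and those of B rest mainly on Slc47a1, Bnc2 and Col1a2. Camk2a, Grin2b and Snap25 are found in over 90% of the neuronal subgroup.

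The fibroblast-type nuclei were set beside vascular cells of the same libraries. There were 19 and 24 mural nuclei in WT and 29 and 23 in KI, and 30 and 12 endothelial nuclei in WT and 13 and 19 in KI, and levels are set side by side as a description. Genes of the fibroblast rule were left out. Genes that chose the vascular nuclei were kept in the lists, and they raise the vascular sums by the choice itself. They were Abcc9 among the transporters, Acta2, Tagln and Pdgfrb in the scar list, and Flt1 and Pdgfrb among the growth factors. Of 29 fibroblast transporters, the 27 outside the rule summed to 10027 ± 943 CPM in the 158 nuclei, 2262 ± 279 in mural nuclei and 2908 ± 522 in endothelial nuclei (SD over 4 libraries), and neither vascular class overlapped with the 158 nuclei. Slc38a2, an amino acid transporter, and Slc7a11, the cystine exchanger, had 2373 to 3365 CPM and 1131 to 1970 CPM over the 4 libraries, against means of 74.1 and 27.0 CPM in mural nuclei and 165 and 26.7 CPM in endothelial nuclei. Lipid carriers and prostanoid genes summed to 14998 ± 6060 CPM, against 2165 ± 1239 and 2490 ± 917. Retinoid genes summed to 1314 ± 380 CPM, against 180 ± 104 and 144 ± 109. The endothelial nuclei of WT replicate 1 held 33443 CPM of the 7 choroid plexus markers, 1691 UMIs of them from Ttr, against 182 to 296 CPM in the other libraries. Their sums of both lists were the highest of the endothelial nuclei, at 3638 CPM for lipid carriers and 287 CPM for retinoid genes, and the other libraries had 1599 to 2796 CPM and 32.9 to 162 CPM. The part of choroid plexus RNA in these sums was not tested. Aldh1a2 had 97 to 300 CPM, 0 CPM in mural nuclei and a mean of 4.48 CPM in endothelial nuclei.

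Matrix genes divided by kind. The 18 collagens of the fibrillar list outside the rule summed to 1838 ± 474 CPM, against 318 ± 51 in mural and 279 ± 238 in endothelial nuclei. Proteoglycans and matrix glycoproteins summed to 3273 ± 1123 CPM, against 649 ± 175 and 1075 ± 248. Fn1, encoding fibronectin, was shared with endothelium, at 184 to 581 CPM in the 158 nuclei and a mean of 311 CPM in endothelial nuclei. Basement membrane genes summed to 2145 ± 624 CPM, and here the mural nuclei, at 1556 ± 292 CPM, overlapped with the 158 nuclei, while endothelial nuclei had 620 ± 250 CPM. Lama1 and Lama2 divided these classes: Lama1 had 231 to 1129 CPM in fibroblast-type nuclei and 0 in both vascular classes, whereas Lama2 had 295 to 646 CPM in fibroblast-type nuclei and a mean of 484 CPM in mural nuclei. Genes of TGF-beta and BMP signalling summed to 4484 ± 408 CPM, against 1187 ± 248 and 2366 ± 392, and Bmp6, a BMP ligand, had 655 to 1936 CPM, against means of 2.65 and 53.8 CPM in mural and endothelial nuclei.

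Of all 24 lists, 10 lay above both vascular classes in every library when the neuronal subgroup was left out. Over all members, TGF-beta and BMP signalling overlapped with endothelial nuclei, at 2405 to 3252 CPM against 1949 to 2895 CPM. The lists of proteoglycans and of immediate early and stress genes overlapped with endothelial nuclei over all members too. The EGF receptor family lay below both in the fibroblast-type nuclei, at 2066 ± 477 CPM against 4648 ± 1772 in mural and 4185 ± 925 in endothelial nuclei. Over all members this list had 3210 to 5698 CPM and overlapped with both, and the neuronal subgroup alone had 4966 to 7612 CPM. Such a subgroup was set apart among the members only. The 8 excitatory neuron markers summed to 2500 to 3211 CPM in mural and 2491 to 3759 CPM in endothelial nuclei. In the fibroblast-type nuclei they summed to 969 to 1320 CPM. The part of neuronal RNA in the EGF receptor family levels was not tested. Arachnoid barrier genes summed to 1590 ± 104 CPM in the fibroblast-type nuclei against 2473 ± 92.1 in endothelial nuclei, below them in every library. The IGF axis had 1735 ± 207 CPM against 2401 ± 682 and growth factors 2007 ± 196 CPM against 2618 ± 353 in endothelial nuclei, with overlap in both. Flt1, in the growth factor list, is a gene that chose the endothelial nuclei. Genes of fibroblast activation and scar, at 1137 to 2371 CPM, overlapped with mural nuclei, at 573 to 1991 CPM. In that list Acta2, Tagln and Pdgfrb are genes that chose the mural nuclei.

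**Figure D3:**
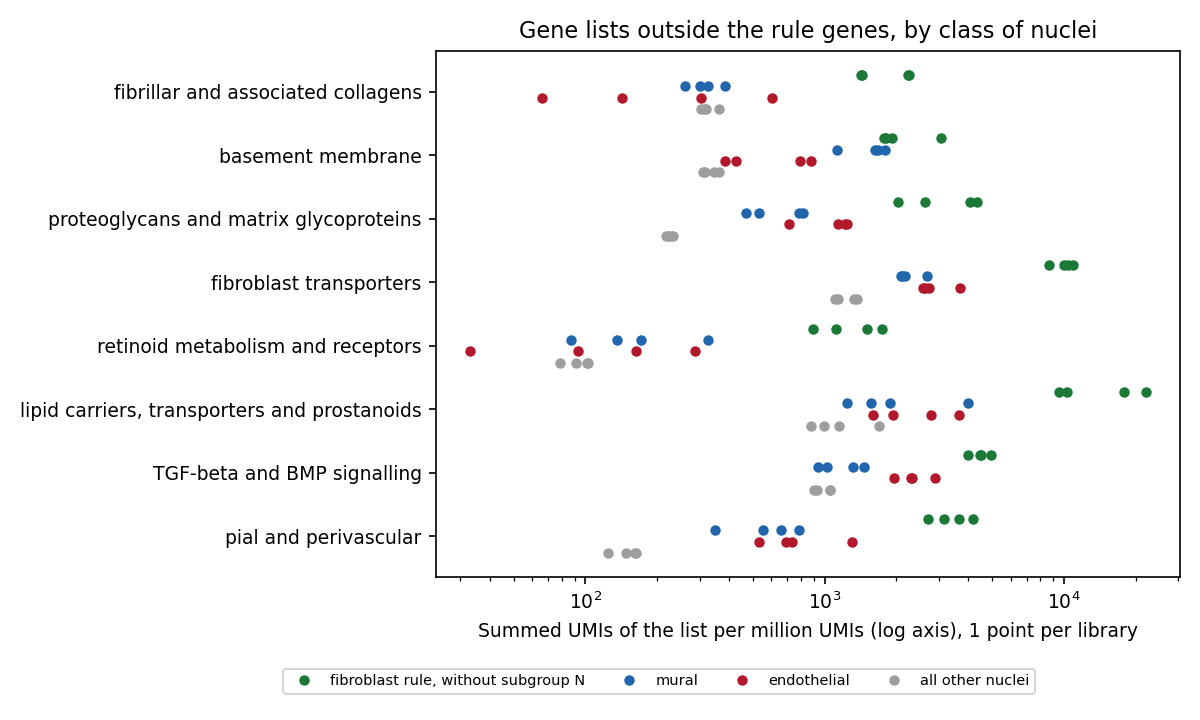
Summed level of 8 gene lists, without genes of the rule, in CPM on a log axis, with 1 point per library for fibroblast-rule nuclei without the neuronal subgroup (green), mural (blue), endothelial (red) and all other nuclei (grey). The 8 lists were picked from 24. The green points lie above both vascular classes in 7 of the 8 lists, and in the basement membrane list they overlap with the mural points, whose mean is 1556 CPM against 2145 CPM.

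KI was compared with WT on UMIs summed per library, with the mouse as the replicate. The sums over all 211 nuclei held 119937 and 201395 UMIs in WT and 232459 and 269393 UMIs in KI. Those over the 158 nuclei held 61939 and 103789 UMIs in WT and 86798 and 101644 UMIs in KI. A single nucleus of subgroup B gave 14207 UMIs, 22.9% of the sum of WT replicate 1. No label says that the mice of a genotype were independent beyond being separate samples, so p-values measure the spread between these libraries.

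Over all 211 nuclei, the quasi-likelihood test of edgeR (p adjusted by Benjamini-Hochberg) called 38 of 4700 genes at an adjusted p below 0.05 (0.809% of those tested), 27 higher (0.574%) and 11 lower (0.234%) in KI. Outside the rule these were 37 genes, 27 higher and 10 lower, since Bnc2, whose test is not independent of the choice of nuclei, was among the lower genes. Before adjustment 571 genes (12.1%) had p below 0.05. Scaled by library totals alone, without TMM factors, 21 genes were higher and 17 lower. The count was 0 with 4 or more markers required, and 0 without nuclei with a doublet score above 0.25. With a block for replicate number, or on numbers of nuclei with a UMI, it was 0 too. It was 326 with 2 or more markers required, and further settings are given below. Most of the 38 calls belonged to the neuronal subgroup. In 26 of the 27 genes that were higher, over 50% of the gene's UMIs lay in the 53 neuronal nuclei, with a median of 91.2%. The exception was Errfi1. They included Dpp10 and Cntn4, neuronal surface proteins, Pcdh15, a protocadherin, Sorcs1, a sorting receptor, and Mei4 and Tox. Dpp10 had 91.7 and 358 CPM for the WT mice, 1721 and 1411 CPM for the KI mice (log2 fold change 2.86 ± 0.41 SE, adjusted p = 0.00818), and 92.1% of its UMIs were in the neuronal subgroup. Among the 11 genes that were lower, the neuronal subgroup held most UMIs of Zfp804b, Prox1, Dock10 and Frmd5. Prox1, a transcription factor of dentate granule neurons, had 150 and 109 CPM (WT) against 21.5 and 22.3 CPM (KI) (log2 fold change -2.36 ± 0.46, adjusted p = 0.0274). The other 6 lower genes outside the rule had most of their UMIs in fibroblast-type nuclei: Hhip, Cemip, Adamtsl3, Col25a1, Sned1 and Sncaip.

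**Figure D4:**
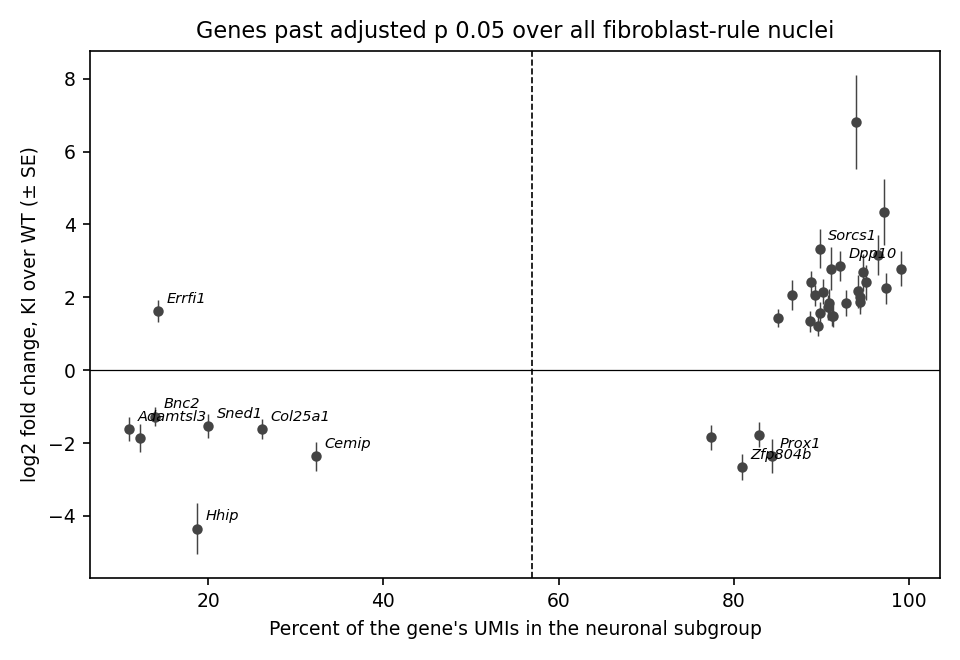
The 38 genes past adjusted p 0.05 over all 211 nuclei. The vertical axis is the log2 fold change of KI over WT with its SE, and the horizontal axis the percent of the gene's UMIs that lie in the neuronal subgroup. The dashed line marks the subgroup's 57.0% of all UMIs. Higher genes other than Errfi1 stand at the right, while Errfi1 and 7 lower genes, Bnc2 of the rule among them, stand at the left.

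Without the neuronal subgroup no gene passed the threshold. edgeR called 0 of 2160 genes (0%) at an adjusted p below 0.05, with 136 genes at an unadjusted p below 0.05 (6.3% of those tested), 70 higher (3.24%) and 66 lower (3.06%). DESeq2 also called 0, with 40 genes at an unadjusted p below 0.05. The count depended on single libraries. Leaving out KI replicate 1 gave 32 calls and leaving out KI replicate 2 gave 24, where the lone KI library is assumed to vary like the WT libraries, and 0 without either WT library. Of the 38 genes called over all members 18 were still tested, 17 of them kept their direction, and for 9 the unadjusted p was under 0.05. Hhip, Errfi1 and Shroom2 came nearest to the threshold, each with an adjusted p of 0.0679. The following values are therefore of genes that were past the threshold over all members and not in the 158 nuclei, or past it in neither.

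Errfi1, whose product MIG-6 binds and inhibits the EGF receptor and is induced as an early response to growth factors and stress, rose in KI over all members and was, of the 27 genes called higher, the one with most of its UMIs outside the neuronal subgroup. It lies at chr4:150853919-150868892 on the plus strand (GRCm38, the build mm10 of the files). Over all members it had 142 and 139 CPM (WT) against 340 and 449 CPM (KI) (log2 fold change 1.63 ± 0.30, edgeR adjusted p = 0.0267). In the 158 nuclei it had 242 and 202 CPM for the WT mice, 795 and 1033 CPM for the KI mice (log2 fold change 2.14 ± 0.40, adjusted p = 0.0679). Those values rested on 15 and 21 UMIs in 5 of 25 and 13 of 45 WT nuclei, and on 69 and 105 UMIs in 25 of 39 and 20 of 49 KI nuclei. Both KI libraries were above both WT libraries. The largest count in 1 nucleus was 20 UMIs, 9.52% of all.

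Most UMIs of Errfi1 lay in subgroups A and C. In subgroup A it had 698 and 272 CPM (WT) against 775 and 1737 CPM (KI), so that WT replicate 1 and KI replicate 1 stood close together. In subgroup C it had 95.6 and 406 CPM in WT and 1379 CPM in KI replicate 1, whose 15 nuclei held 40 of the UMIs, and 0 UMIs in the 1 nucleus of KI replicate 2. In subgroup B it had 0 and 97.9 CPM (WT) against 87.1 and 50.3 CPM (KI). Errfi1 had means of 15 CPM in mural and 19.8 CPM in endothelial nuclei. Over all other nuclei it had 44.7 and 39.0 CPM for the WT mice, 66.0 and 48.7 CPM for the KI mice, also with both KI libraries higher. The difference of the genotype effect between fibroblast-type and other nuclei was 1.63 ± 0.38 on the log2 scale without the neuronal subgroup and did not pass the threshold (adjusted p = 0.0783).

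Hhip, which encodes a cell surface inhibitor of hedgehog ligands, was lower in KI (chr8:79965851-80058006, minus strand). In the 158 nuclei it had 307 and 173 CPM (WT) against 11.5 and 9.84 CPM (KI), from 19, 18, 1 and 1 UMIs. The log2 fold change was -4.35 ± 0.69 over all members (edgeR adjusted p = 0.0129) and -4.18 ± 0.73 in the 158 nuclei (adjusted p = 0.0679). Of its 39 UMIs 37 lay in subgroup B, where 3 of 8 and 6 of 21 WT nuclei had a UMI against 1 of 7 and 1 of 16 KI nuclei. In WT replicate 1, 11 of the 19 UMIs came from 1 nucleus. In KI, Hhip is at a level of 1 UMI per library, so the size of the fold change is uncertain.

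Other genes that were lower in KI followed the subgroups too. Col25a1, a transmembrane collagen, had 1049 and 1243 CPM (WT) against 426 and 364 CPM (KI). Its log2 fold change was -1.61 ± 0.28 over all members (adjusted p = 0.0178) and -1.44 ± 0.38 in the 158 nuclei (adjusted p = 0.447). In subgroup B, which held most of its UMIs, it had 1941 and 2409 CPM for the WT mice, 1307 and 855 CPM for the KI mice, again without overlap. Adamtsl3, a matrix protein related to the ADAMTS proteases, had 1082 and 646 CPM (WT) against 403 and 335 CPM (KI) (-1.62 ± 0.33 over all members, adjusted p = 0.0354, and -1.11 ± 0.40 in the 158 nuclei, adjusted p = 0.616). Within subgroup B its values overlapped, at 2132 and 1273 CPM (WT) against 1481 and 855 CPM (KI). Subgroup B made up 8 of 25 and 21 of 45 of the WT nuclei and 7 of 39 and 16 of 49 of the KI nuclei. As shares these overlapped between the genotypes, and they are given as a description only. The part of these shares in the lower genes was not tested, and fewer nuclei of a kind and less RNA per nucleus cannot be told apart in the sums.

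Sned1, a secreted matrix protein, had 387 and 549 CPM for the WT mice, 173 and 157 CPM for the KI mice, and it was lower over all members (log2 fold change -1.54 ± 0.33, adjusted p = 0.048). It was spread over subgroups, with 499 and 668 CPM (WT) against 172 and 118 CPM (KI) in subgroup A and 350 and 431 CPM (WT) against 43.6 and 201 CPM (KI) in subgroup B. In subgroup C the groups overlapped, at 287 and 649 CPM (WT) against 276 and 387 CPM (KI). Cemip had 743 and 212 CPM for the WT mice, 161 and 78.7 CPM for the KI mice, with a log2 fold change of -2.37 ± 0.40 over all members (adjusted p = 0.0162) and -1.83 ± 0.58 in the 158 nuclei (adjusted p = 0.53). Of its 46 UMIs in WT replicate 1, 36 came from subgroup C. Sncaip, which encodes the synuclein partner synphilin, had 339 and 270 CPM (WT) against 69.1 and 98.4 CPM (KI) (-1.85 ± 0.38 over all members, adjusted p = 0.0389). These genes did not overlap between the genotypes in the 158 nuclei, which was so for 39% of all genes tested there.

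Several other genes were higher in KI without passing the threshold in either sum. Igf2r, Wdr17, Slc1a2, Nhs and Dok6 were lower in the 158 nuclei, also without passing it in either sum. Shroom2, an actin-binding regulator of cell shape on the X chromosome, had 2 and 5 UMIs in WT and 30 and 23 UMIs in KI in the 158 nuclei (32.3 and 48.2 CPM against 346 and 226 CPM, log2 fold change 2.81 ± 0.53, edgeR adjusted p = 0.0679). Its fold change over all members was 1.68 ± 0.43 (adjusted p = 0.0973). Ccn2, a matricellular protein of growth and wound repair, had 80.7 and 106 CPM (WT) against 196 and 866 CPM (KI) (2.54 ± 0.61, adjusted p = 0.421), and 83 of the 88 UMIs of KI replicate 2 were in subgroup A. Rbp4, the retinol carrier, had 16.1 and 48.2 CPM for the WT mice, 138 and 236 CPM for the KI mice (2.44 ± 0.61, adjusted p = 0.421). Klf6, an early response transcription factor, had 48.4 and 28.9 CPM (WT) against 115 and 226 CPM (KI) (2.29 ± 0.63, adjusted p = 0.46).

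**Figure D5:**
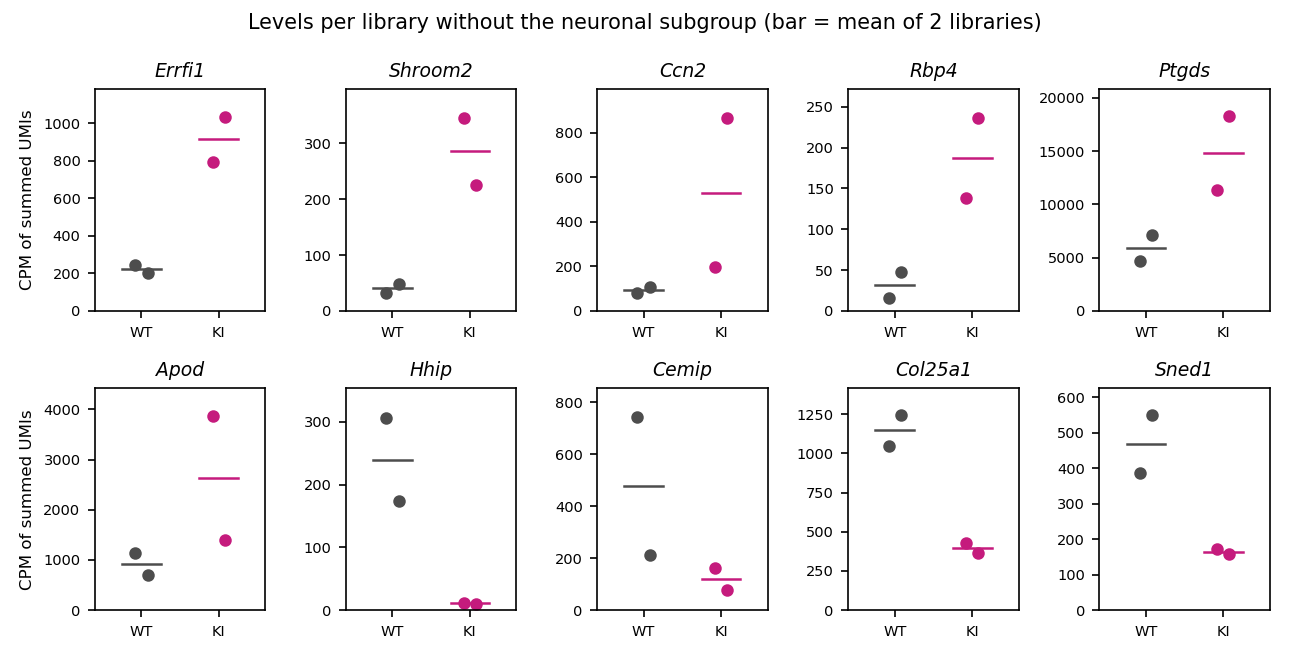
Level of 10 genes per library in the 158 nuclei without the neuronal subgroup (CPM, axes from 0), WT grey and KI magenta, replicate 1 to the left of replicate 2, with a bar at the mean. The KI points lie above the WT points in the upper row and in Apod, and below them in Hhip, Cemip, Col25a1 and Sned1, and no gene shown passed adjusted p 0.05 in these sums.

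The secreted lipid carriers Ptgds and Apod were higher in both KI libraries than in both WT libraries in the 158 nuclei and also in all other nuclei. Ptgds had 4650 and 7082 CPM (WT) against 11314 and 18260 CPM (KI) in the 158 nuclei (log2 fold change 1.41 ± 0.42, adjusted p = 0.508). Over all members the log2 fold change was 1.04 ± 0.27 (adjusted p = 0.108). In all other nuclei it had 175 and 133 CPM for the WT mice, 429 and 306 CPM for the KI mice, a log2 ratio of 1.25, and the difference between the classes was 0.09 ± 0.37 (adjusted p = 0.982). Within subgroup A the WT libraries had 9727 and 12772 CPM and the KI libraries 26390 and 28852 CPM. The groups overlapped in the other subgroups: subgroup B had 2004 and 3016 CPM (WT) against 1350 and 3094 CPM (KI), and subgroup C 2868 and 5276 CPM (WT) against 1103 CPM in KI replicate 1 and 8507 CPM in the 1 nucleus of KI replicate 2. In both, KI replicate 1 lay below both WT libraries. Apod had 1130 and 694 CPM (WT) against 3860 and 1407 CPM (KI) (1.66 ± 0.49, adjusted p = 0.508), with the highest value in KI replicate 1, as in all other nuclei, where it had 81.5 and 46.4 CPM (WT) against 543 and 133 CPM (KI). The rise of Apod was smaller in the members than in the other nuclei by 1.24 ± 0.24 on the log2 scale (adjusted p = 0.00462), and by 0.71 ± 0.32 without the neuronal subgroup (adjusted p = 0.625). The part of RNA from other cells in these levels was not tested.

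Cyfip2 itself, whose transcript is not removed by the knock-in, had 194 and 260 CPM for the WT mice, 80.6 and 177 CPM for the KI mice in the 158 nuclei, from 12, 27, 7 and 18 UMIs. Both KI libraries lay below both WT libraries there, and the groups did not overlap for 39% of all genes tested in the 158 nuclei. Cyfip2 did not pass the threshold in these sums. Over all members the log2 fold change was -0.24 ± 0.31 (edgeR adjusted p = 0.848). That value includes the neuronal subgroup, which had 167 CPM in pooled WT and 166 CPM in pooled KI nuclei. Penk, the precursor of enkephalins, had 7 UMIs in all members and was too sparse to be tested.

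The gene lists are described by the direction and number of their tested members outside the rule, beside the median of all tested genes, which was a log2 fold change of 0.0011 over all members and 0.01 in the 158 nuclei. In the 158 nuclei no member of any list passed the threshold. Among 9 pial and perivascular genes tested there, 6 were above 0 and 3 below, with a median of 0.83. Cp, the ferroxidase ceruloplasmin, had 404 and 270 CPM (WT) against 910 and 895 CPM (KI) (1.54 ± 0.39, adjusted p = 0.421), and Lama1 had 339 and 231 CPM (WT) against 1129 and 246 CPM (KI), where KI replicate 1 alone was high. Over all members 3 of 9 genes tested were called lower, Cemip, Adamtsl3 and Sned1 (0.234% of all genes tested were called lower), and none higher, and the median was 0.06. Of these 3, Adamtsl3 had 200 of its 203 UMIs in the 158 nuclei in subgroup B.

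Arachnoid barrier and dural genes had medians below 0. Of 6 arachnoid barrier genes tested in the 158 nuclei 4 were below 0 (median -0.24), and of 4 dural genes 3 were (median -0.67). Ccn3 had 387 and 356 CPM for the WT mice, 184 and 128 CPM for the KI mice (-1.15 ± 0.42), while Mgp, at 1889 and 973 CPM (WT) against 565 and 1594 CPM (KI), overlapped. Of 14 meningeal transcription factors 11 were below 0 (median -0.44), with Foxp2 at 1243 and 886 CPM (WT) against 599 and 285 CPM (KI). Of 5 fibrillar collagen genes outside the rule 3 were below 0 (median -0.05), and Col25a1 was the collagen called over all members. Of 6 basement membrane genes 5 were above 0 (median 0.63). The summed level of the whole list was 1776 and 1917 CPM (WT) against 3076 and 1810 CPM (KI), so KI replicate 1 alone was high.

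Transporters, retinoid genes and matrix turnover showed no call in the 158 nuclei. Of 15 fibroblast transporters 9 were below 0 (median -0.39), and Slc38a2 was level at 2761 and 2765 CPM for the WT mice, 2373 and 3365 CPM for the KI mice. All 5 retinoid genes tested were above 0 (median 0.85). Timp3, an inhibitor of matrix proteases, had 710 and 405 CPM (WT) against 1302 and 826 CPM (KI) (1.06 ± 0.42). Among genes of fibroblast activation and scar, 4 of 6 were above 0 (median 0.28), with Ccn2 and Spp1 at an unadjusted p below 0.05. Of all genes tested there, 3.24% were higher at that unadjusted p. Spp1, which encodes osteopontin, had 129 and 77.1 CPM (WT) against 127 and 266 CPM (KI), so the groups overlapped. Of 11 TGF-beta and BMP genes 5 were above 0 (median -0.03; over all members 4 of 20, median -0.48), among them Bmp6, with 759 and 655 CPM for the WT mice, 1936 and 1200 CPM for the KI mice (1.26 ± 0.40).

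Of 11 immediate early and stress genes tested in the 158 nuclei 7 were above 0 (median 0.28). Errfi1 was the member called over all 211 nuclei, where 13 were tested. Fkbp5, a glucocorticoid target, was level at 953 and 1089 CPM (WT) against 1060 and 1279 CPM (KI). Among EGF receptor family genes 5 of 6 were above 0 (median 0.36), but over all members 3 of 8 (median -0.56), and Egfr itself had 274 and 241 CPM (WT) against 92.2 and 433 CPM (KI). Among 7 genes of the IGF axis 4 were above 0 (median 0.21), and Igfbp5 had 484 and 453 CPM for the WT mice, 173 and 325 CPM for the KI mice. Of 24 ribosomal protein genes 19 were above 0 (median 0.44), and over all members 15 of 34 were (median -0.02). Interferon and antigen presentation genes were all too sparse to be tested, and so were opioid receptors in the 158 nuclei. Among other lists the median was 0.28 for 7 lipid carriers (5 above 0), -0.16 for 4 growth factor genes (1 above 0), -0.05 for 16 guidance and adhesion genes (7 above 0) and -0.30 for 6 genes of the WAVE complex (2 above 0). It was -0.22 for 8 proteoglycans (3 above 0), -0.30 for 8 matrix turnover genes (4 above 0) and -0.57 for 2 neuropeptides (0 above 0).

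Over all 211 members, where the neuronal subgroup held most UMIs, list medians are given beside the 0.0011 of all tested genes and were not tested. Medians above 0 in the 158 nuclei and below 0 over all members were those of the IGF axis (-0.04, 4 of 9 above 0) and of fibroblast activation and scar (-0.01, 3 of 6), besides the EGF receptor family and the ribosomal proteins. The median was 0.24 for basement membrane (6 of 9 above 0), 0.34 for retinoid genes (6 of 6), 0.07 for lipid carriers (6 of 8) and 0.01 for immediate early and stress genes (7 of 13). It was -0.44 for fibrillar collagens (1 of 7), -0.58 for proteoglycans (3 of 9), -0.45 for matrix turnover (2 of 10), -0.31 for fibroblast transporters (3 of 17) and -0.54 for meningeal transcription factors (2 of 15). Arachnoid barrier genes had -0.44 (4 of 8), dural genes -0.68 (0 of 5), growth factors -0.15 (3 of 8), guidance and adhesion -0.19 (8 of 23), the WAVE complex -0.18 (3 of 8) and neuropeptides -0.96 (0 of 2).

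A further test asked whether the genotype effect in the members differed from that in the other nuclei of the same libraries, with the library as a block. Over all members 70 of 4700 genes passed (1.49%), 47 (1%) with a more positive and 23 (0.489%) with a more negative effect in the members. Without the neuronal subgroup 2 of 2160 genes passed (0.0926%), both more negative in fibroblasts. When nuclei with 4 or more neuronal markers were left out instead of the subgroup, a setting chosen after seeing the data, 0 of 2350 genes passed (148 at an unadjusted p below 0.05). Foxp2, a forkhead transcription factor, fell relative to the other nuclei by 2.04 ± 0.37 on the log2 scale (adjusted p = 0.0191). It had 16.8 and 19.7 CPM for the WT mice, 34.8 and 27.4 CPM for the KI mice in the other nuclei, where KI was higher. Slc6a20a, a proline transporter, differed by -1.66 ± 0.33 (adjusted p = 0.0338). It had 823 and 1532 CPM (WT) against 1094 and 433 CPM (KI) in the 158 nuclei, where the groups overlapped, and 3.42 and 4.46 CPM (WT) against 11.3 and 5.10 CPM (KI) in the other nuclei. Both differences thus combined a lower mean in KI fibroblasts with a higher one elsewhere.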

How the data were processed

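The deposited tables hold raw UMI counts, which the authors obtained with Cell Ranger (version 7.0.1 in the file headers, genome mm10 in the labels) and did not normalize. Annotation and intron handling were not given in the sources used here. The labels put all 4 libraries in the same batch. Members followed the rule in the report. Doublets were scored with Scrublet (scanpy 1.11.5) and members kept. Members were clustered with Leiden (1000 variable genes, 15 components, 15 neighbours, resolution 0.5). Counts were summed per library and tested with edgeR 4.0.16 (R 4.3.3, low-count filter, TMM factors, quasi-likelihood test, Benjamini-Hochberg, threshold 0.05). The test was run on simulated counts in which only genes with higher counts were changed, so recovery of changes in sparse genes was not tested. DESeq2 1.42.0 was an alternative. The study tested single nuclei instead. CPM are raw counts over the sum of the class. Shares have exact (Clopper-Pearson) 95% intervals.

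The members and lists were chosen with earlier results of these data known, and the neuronal subgroup and the reference nuclei for subgroup folds were set after the data were seen. Named genes were up to 10 per direction past the threshold (largest change, at least 10 CPM, no overlap), list members past it and up to 4 with the highest level, up to 8 per direction at an unadjusted p below 0.01 and at least 50 CPM, the genes of the rule, and Cyfip2, Penk, Errfi1, Ptgds and Apod. The rule was also applied to the sums without the neuronal subgroup. Foxp2 and Slc6a20a in the class comparison and other list members given with values were chosen after their values were seen. Positions are GENCODE M21 on GRCm38, matched by gene ID. Some genes, and the list of complement and chemokines, are not reported here.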

Additional observations from a re-analysis of the deposited data

Results flagged for a closer look

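The genotype effect in the 211 nuclei was tested against that in all other nuclei of the same libraries, and 70 genes differed over all members and 2 without the neuronal subgroup (edgeR quasi-likelihood test of the difference, adjusted p below 0.05). Each value below is the log2 fold change of KI over WT in the members minus that in the other nuclei, for the named genes among them. Among genes with most UMIs outside the neuronal subgroup, Hhip differed by -4.04, Sned1 by -2.27, Adamtsl3 by -1.79, Cemip by -1.79, Col25a1 by -1.51 and Apod by -1.24. Among genes with most UMIs in the neuronal subgroup, Dpp10 differed by 2.30, Cntn4 by 1.85, Pcdh15 by 1.72, Tox by 2.32, 4930555F03Rik by 2.55 and Gm45321 by 2.99. In the other direction, Zfp804b differed by -2.61, Frmd5 by -1.90, Prox1 by -1.81 and Dock10 by -1.44. Of the named genes not called in the members themselves, Gm49678 differed by 2.19, 4933413L06Rik by 2.34, Fras1 by 2.04, Nxph1 by -2.12 and Thsd7a by -1.54. Without the neuronal subgroup Foxp2 differed by -2.04 and Slc6a20a by -1.66. With 2 libraries per group no library could be tested as standing apart from its group.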

How the results depend on the processing

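The number of genes called between KI and WT over all members, 38, depended on which nuclei were counted. It was 326 with 2 or more markers required, 0 with 4 or more (1223 genes tested, 35 at an unadjusted p below 0.05), 14 with at least 1000 genes per nucleus, 2 with no exclusion gene detected and 79 without nuclei holding mural markers. It was 0 without nuclei with a doublet score above 0.25 (460 at an unadjusted p below 0.05), 0 without the neuronal subgroup and 0 without nuclei with 4 or more neuronal markers (128 unadjusted), the last 2 settings chosen after seeing the data. It was 107 with no filter on low counts, 21 with the DESeq2 test, 9 with sums thinned to the smallest total and 0 on the number of nuclei with a UMI (131 unadjusted). DESeq2 size factors gave 34. Leaving out 1 library gave 52 to 159, with 52 without WT replicate 1, 122 without WT replicate 2, 124 without KI replicate 1 and 159 without KI replicate 2. In the 158 nuclei the count of 0 became 6 with no filter on low counts, and leaving out 1 library gave 0 to 32. The difference between the members and the other nuclei, 70 genes, became 109 with 2 or more markers, 0 with 4 or more, 19 with at least 1000 genes, 4 with no exclusion gene, 38 without high doublet scores, 2 without the neuronal subgroup, 0 without nuclei with 4 or more neuronal markers, and 43 to 112 without 1 library. The log2 ratio of the share of nuclei kept its direction in every setting run (0.42 to 0.82, and 0.17 to 1.19 without 1 library). The cause of these changes was not tested.

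The replicate numbers are shared by the groups, but no label pairs the mice, and deviations of same-numbered libraries correlated at 0.038 over 4140 genes. With a replicate block, 0 genes were called over all members (512 at an unadjusted p below 0.05) and 0 in the 158 nuclei (105 unadjusted).

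Of the log2 fold changes of named genes over all members, these changed sign: with 2 or more markers Tox to -0.37, Fras1 to -0.37, Cyfip2 to 0.13, Etf1 to -0.13 and Igf2r to 0.049, with 4 or more markers Nhs to 0.19, with no exclusion gene Slc1a2 to 0.37, on nuclei with a UMI Slc1a2 to 0.10, without nuclei with 4 or more neuronal markers Pcdh15 to -0.075 and without WT replicate 2 Cyfip2 to 0.027 (the log2 fold change of Cyfip2 ranged from -0.42 to 0.027 without 1 library). In the 158 nuclei Slc1a2 changed to 0.25 on nuclei with a UMI and Thsd7a to 0.11 without KI replicate 2 (the log2 fold change of Thsd7a without the neuronal subgroup ranged from -1.65 to 0.11 without 1 library). Depth limits the 158 nuclei, where 2160 genes could be tested, as against 4700 over all members.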
